A study of Mus musculus with 20 samples.

Results

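The genes described here are 9 products of Paneth cells other than the defensins: Lyz1, Ang4, Pla2g2a, Mmp7, Itln1, Wnt3, Clps, Habp2 and Nupr1. They were named with earlier results of these data known, so their direction is a description of a chosen set. Each was found by its symbol in the deposited tables, and all 9 were present among 17294 gene names at the acute time and 16195 at the prolonged time. RNA came from the jejunal epithelium of female mice, described in the series design as crypt epithelial cells. Control (WT) mice were compared with mice carrying a knockout of both Kdm6a and Kdm6b (DKO), which encode demethylases of histone H3. The acute groups were sampled 7 days after ablation was induced (5 libraries of control and 7 of DKO mice), the prolonged groups 5 months after it (3 of control and 5 of DKO mice). The labels name no driver of the deletion, strain or age of the mice. Libraries are labelled as biological replicates, and each acute label carries its own animal number.

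Paneth cells lie at the base of small intestinal crypts, between the stem cells. They store lysozyme, defensins and other antimicrobial proteins in granules, and the protease encoded by Mmp7 cuts pro-defensins into their active form. They also make Wnt3, epidermal growth factor and Notch ligands, which act on the neighbouring stem cells. Kdm6a and Kdm6b remove a methyl mark of histone H3 that is associated with silent genes.

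Between 9914738 and 26586045 reads in genes were behind each library. Kdm6a and Kdm6b transcripts lay below every control in all DKO libraries at both times, with log2 differences of -0.62 and -0.53 after 7 days and -0.62 and -0.42 after 5 months. The DKO means were between 64.4% and 74.6% of control. Of 6 genes that write or erase the histone mark Kdm6a and Kdm6b act on, 3 were called lower at the acute time (the third was Ezh2, at -0.36) and 2 at the prolonged time. Over all genes, 394 were called higher and 1641 lower at the acute time, and 765 and 1190 at the prolonged time. The acute split depended on scaling: with TMM factors, which correct for composition, limma called 660 higher and 1124 lower, and DESeq2 called 1076 and 1252. The 7 general epithelial markers summed to between 8189 and 8680 CPM, the reads of a gene scaled to an equal total per library, in acute controls and 7841 and 8909 CPM in acute DKO libraries. Stromal markers summed to between 53.1 and 227 CPM in acute controls and 43.0 and 751 CPM in acute DKO libraries, and immune markers to between 448 and 836 CPM and 472 and 1334 CPM. The highest stromal sum was in acute DKO 3. The epithelial cadherin gene Cdh1 was called lower in acute DKO libraries (-0.18), though not with TMM factors, and 0 of 20 immune and 0 of 12 stromal markers were called at that time. Among prolonged libraries 1 of 17 immune markers (the integrin gene Itgam, 0.37) and 1 of 6 stromal markers (Pdgfrb, a receptor gene of mesenchymal cells, 0.60) were called higher, and Itgam lost its call without DKO 2 and 5. Their part in the results below was not tested.

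As a whole, these Paneth products were lower in DKO epithelium at both times. At the acute time 8 of 9 were called lower and 0 higher, where 12.1% of all 13601 genes tested were called lower and 2.90% higher. At the prolonged time 6 of 9 were called lower and 0 higher, where the shares over all 13316 genes were 8.94% and 5.74%. Called means an adjusted p under 0.05 in limma, fitted across all genes on log2(CPM + 1), which understates the differences of low genes. The median log2 difference over the 9 genes was -1.27 after 7 days and -0.98 after 5 months, beside -0.07 and 0.00 over all genes tested. Every DKO library lay below every control library for 6 of 9 genes at the acute time and 7 of 9 at the prolonged time, against 6.55% and 11.7% of all genes tested. In these bulk libraries, fewer Paneth cells and less RNA per Paneth cell cannot be told apart.

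**Figure D1:**
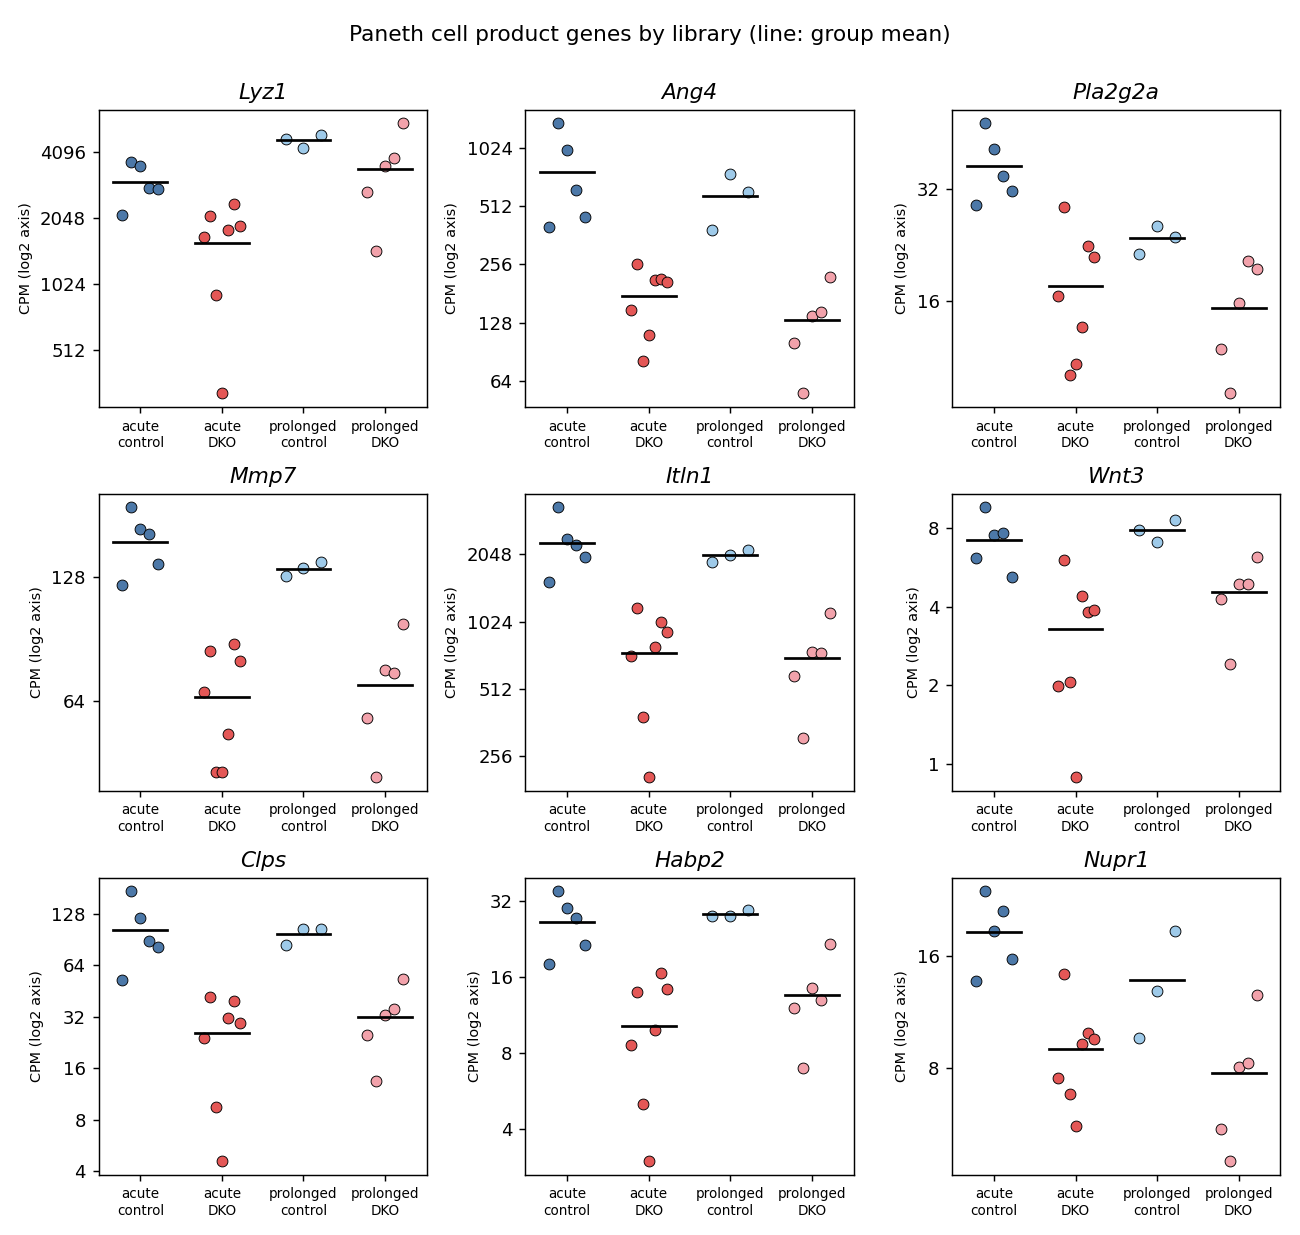
CPM of each of the 9 genes (log2 axis) in each of the 20 libraries, by group; a point is a library and a line the group mean. The Ang4, Pla2g2a, Mmp7, Itln1, Clps and Habp2 points of the DKO groups lie below all control points of the same time, while the Lyz1 points of both times overlap.

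Upstream sequences are shown for 4 of the genes: Ang4 and Itln1, with large differences, Mmp7, with an intermediate one, and Lyz1. Lyz1 did not pass the test, though its acute log2 difference of -1.11 was as large as that of Pla2g2a (-1.09), which did. RefSeq promoter entries (build GRCm38.p6, not the build of the deposited tables) matched 7 of 9 genes, and Clps and Pla2g2a had none. The 250 bases before the annotated start are printed 5′ to 3′ on the gene's strand for Ang4 (chr14:51773591-51773840, minus strand), Itln1 (chr1:171535295-171535544, minus strand), Mmp7 (chr9:7691840-7692089, plus strand) and Lyz1 (chr10:117292869-117293118, minus strand). Capitals mark matches to the TATA box (TATAAA or TTTATA) and the core bound by the Wnt pathway's TCF/LEF factors (CTTTGA or TCAAAG). They also mark a form of the E-box of basic helix-loop-helix factors (CAGNTG or CANCTG), called the E-box below. Both strands were searched, and other forms of the E-box were not.
Ang4: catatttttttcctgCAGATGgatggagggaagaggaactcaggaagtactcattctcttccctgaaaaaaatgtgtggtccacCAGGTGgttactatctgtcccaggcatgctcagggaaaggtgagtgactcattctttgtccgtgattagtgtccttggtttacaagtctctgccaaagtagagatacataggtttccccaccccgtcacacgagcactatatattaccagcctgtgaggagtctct
Itln1: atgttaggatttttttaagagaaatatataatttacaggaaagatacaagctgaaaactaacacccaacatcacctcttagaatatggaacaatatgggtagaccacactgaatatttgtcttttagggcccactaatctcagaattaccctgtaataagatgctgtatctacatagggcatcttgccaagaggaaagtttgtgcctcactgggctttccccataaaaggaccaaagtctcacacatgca
Mmp7: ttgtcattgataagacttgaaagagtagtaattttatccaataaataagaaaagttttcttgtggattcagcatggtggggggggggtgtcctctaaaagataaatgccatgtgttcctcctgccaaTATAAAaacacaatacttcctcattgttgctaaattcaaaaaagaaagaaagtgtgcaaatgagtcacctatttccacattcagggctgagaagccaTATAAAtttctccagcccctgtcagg
Lyz1: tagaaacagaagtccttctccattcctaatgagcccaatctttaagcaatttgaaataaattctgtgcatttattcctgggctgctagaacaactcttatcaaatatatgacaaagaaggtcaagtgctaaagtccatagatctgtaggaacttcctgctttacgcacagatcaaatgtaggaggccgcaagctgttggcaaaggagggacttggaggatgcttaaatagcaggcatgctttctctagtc
Ang4 held 2 E-box matches. The printed Mmp7 entry held 2 TATA box matches, one of them from -26 to -21 relative to the start, and a TCF/LEF core at 5 to 10 bases after the start, beyond the printed stretch. RefSeq lists another Mmp7 start nearby, and its window, not printed, overlaps the first. It held an E-box match from -164 to -159 and no TATA box match. Its TCF/LEF core, from -246 to -241, is the same stretch of bases as that of the first window. Itln1 held none of the 3 motifs in the forms searched, and the single E-box match of Lyz1 lay after the start. Over the 300 bases searched, from 250 before to 50 after the start, E-box matches were found in 4 of the 7 genes (for Mmp7 at the other start only) and in 51.4% of 32851 promoters. A TATA box was found in 1 of 7 and in 13.6% of promoters, and a TCF/LEF core in 1 of 7 and in 5257 of the 32851 promoters. These letters describe the windows and were not tested for any role in the differences.

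Lyz1 encodes lysozyme, the granule enzyme that cleaves bacterial cell walls and the usual marker of Paneth cells. It measured 2114, 3672, 3529.9, 2805 and 2764 CPM in the 5 acute controls, and ranged from 325 through a median of 1811 to 2355 CPM in the 7 DKO libraries. Of the DKO libraries 6 of 7 lay under the lowest control, and DKO 4 and DKO 3, at 325 and 907 CPM, lay below the other 5. The DKO mean was 52.9% of the control mean, a log2 difference of -1.11 ± 0.41 (SE) that did not pass the test (adjusted p by limma = 0.0836). Without DKO 4 the difference was smaller, at -0.77, and passed (adjusted p by limma = 0.0296), and without DKO 3 and DKO 4 it was -0.59 (0.0205).

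After 5 months Lyz1 measured 4687, 4276 and 4867 CPM in controls and 2687, 1446, 3515, 3841 and 5526 CPM in DKO libraries. The groups overlapped, with DKO 5 above all 3 controls and DKO 2 lowest. The log2 difference was -0.57 ± 0.31 (SE) and did not pass (adjusted p by limma = 0.271), and it was -0.29 without DKO 2. Lyz2, the near-identical lysozyme gene of macrophages, measured 77.5 ± 64.6 CPM (SD, n = 5) in acute controls and 109 ± 114 CPM (SD, n = 7) in acute DKO libraries. It measured 2.41 ± 1.26 CPM (SD, n = 3) and 3.20 ± 0.50 CPM (SD, n = 5) at the prolonged time, and was called at neither. How reads shared by both genes were divided is not stated by the labels.

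Ang4, a secreted ribonuclease-family protein that kills microbes, showed the lowest DKO share of control among the 9 genes at both times. Acute controls measured 397, 1368, 989.6, 618 and 450.4 CPM, and the DKO libraries ranged from 81.7 through a median of 207 to 258 CPM. All 7 DKO libraries lay below the lowest control, although the controls themselves differed by 3.44-fold. The DKO mean was 23.1% of control, a log2 difference of -2.04 ± 0.33 (SE, adjusted p by limma = 0.00156). Prolonged controls measured 383, 749.6 and 601 CPM and DKO libraries 100.2, 55.3, 138, 145 and 221 CPM. Again no DKO library reached the lowest control, and the mean was 22.8% of control, at -2.21 ± 0.35 (SE, adjusted p by limma = 0.00161). Members of the angiogenin family are close in sequence, so their reads may have been divided in an unknown way.

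Pla2g2a encodes a secreted phospholipase A2 that attacks bacterial membranes, and its gene is disrupted in some mouse strains. It measured 28.95, 48.1, 40.9, 34.7 and 31.5 CPM in acute controls and from 10.1 through 16.5 to 28.6 CPM (lowest, median and highest) in acute DKO libraries. DKO 2, the highest, came close to the lowest control but did not overlap it. The acute log2 difference was -1.09 ± 0.23 (SE, adjusted p by limma = 0.00695). Prolonged values were 21.4, 25.5 and 23.8 CPM in controls and 11.9, 9.03, 15.7, 20.5 and 19.5 CPM in DKO libraries. These groups did not overlap either, but the difference of -0.64 ± 0.21 (SE) missed the threshold (adjusted p by limma = 0.0653). It passed in DESeq2 (-0.61, adjusted p = 0.0378), and in limma without DKO 4 (0.0353) or without DKO 5 (0.0489).

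Mmp7, the matrix metalloprotease matrilysin, had the smallest adjusted p of the 9 genes at the acute time. Acute controls measured 122, 189, 167, 162 and 138 CPM and acute DKO libraries from 43.1 through 67.3 to 87.9 CPM. No DKO library reached a control value, and DKO 3 and DKO 4 shared the lowest value of 43.1 CPM. The DKO mean was 42.2% of control, a log2 difference of -1.27 ± 0.19 (SE, adjusted p by limma = 0.00086). Prolonged controls lay close together at 129, 134 and 139 CPM, and the DKO libraries measured 58.4, 41.9, 76.1, 75.1 and 98.6 CPM. The mean was 52.3% of control, again without overlap, at -0.98 ± 0.20 (SE, adjusted p by limma = 0.00706).

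Itln1 encodes intelectin, a lectin that binds microbial sugars and is also made by goblet cells. Its acute controls measured 1535, 3337, 2408, 2261 and 1985 CPM and the DKO libraries from 205 through 786 to 1177 CPM. The groups did not overlap, and the acute DKO libraries spread over 5.74-fold, with DKO 4 lowest and DKO 3 next at 381 CPM. The log2 difference was -1.78 ± 0.37 (SE, adjusted p by limma = 0.0066). Prolonged controls measured 1893, 2044 and 2139 CPM and DKO libraries 581, 309, 749, 743 and 1121 CPM. Every DKO library lay below every control, and the mean was 34.6% of control, at -1.65 ± 0.30 (SE, adjusted p by limma = 0.00346).

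Wnt3 is the Wnt ligand that Paneth cells supply to stem cells. Its acute controls measured 6.15, 9.64, 7.52, 7.67 and 5.20 CPM and acute DKO libraries from 0.886 through 3.82 to 6.06 CPM. DKO 2, at 6.06 CPM, lay above control 5, so the groups overlapped, and DKO 4 was lowest. The difference of -1.03 ± 0.28 (SE) passed the test (adjusted p by limma = 0.0242), but the call was lost without control 2, control 3, control 4 or DKO 1 (0.062, 0.0623, 0.0602 and 0.0513). In the prolonged groups Wnt3 measured 7.85, 7.11 and 8.57 CPM in controls and 4.30, 2.41, 4.88, 4.90 and 6.19 CPM in DKO libraries. These groups did not overlap, and the difference was -0.71 ± 0.20 (SE, adjusted p by limma = 0.032). That call was lost without control 1, control 2, control 3 or DKO 1 (0.0763, 0.055, 0.125 and 0.0546).

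Clps encodes colipase, the cofactor of pancreatic lipase, and showed the largest acute log2 difference of the 9 genes in limma. Acute controls measured 52.5, 175, 121, 88.7 and 82.3 CPM and acute DKO libraries from 4.57 through 29.6 to 42.1 CPM. The groups did not overlap, and DKO 4 and DKO 3, at 4.57 and 9.47 CPM, lay below the other 5. The difference was -2.14 ± 0.48 (SE, adjusted p by limma = 0.00927), and it was -1.52 without both of those libraries (0.00234). Prolonged controls measured 84.0, 104.6 and 105.2 CPM and DKO libraries 25.2, 13.5, 32.7, 35.6 and 53.2 CPM. All 5 lay below the controls, at -1.70 ± 0.31 (SE, adjusted p by limma = 0.00359).

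Since Clps is best known from the pancreas, acinar markers were read in the same libraries. Of 22 listed acinar genes 13 were present at the acute time, and 2 passed the filter on low values, with 0 called. Those 2, the elastase gene Cela1 and the chymotrypsin-like gene Ctrl, averaged 6.36 and 2.19 CPM over the acute libraries. The other 11 averaged between 0.024 CPM (Try4) and 0.236 CPM (Ctrb1), among them the trypsinogen gene Prss2 at 0.042 CPM and the lipase gene Pnlip at 0.080 CPM. The acinar sum lay between 8.69 and 10.7 CPM in acute controls and 4.99 and 14.4 CPM in acute DKO libraries, and was lowest in DKO 4. The part of acinar RNA in the Clps difference was not tested. Pnliprp2, which encodes another lipase-family protein and was singled out after its values were seen, changed in the same direction as Clps (-1.45 and -1.17, adjusted p by limma = 0.0125 and 0.0197).

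Habp2 encodes a secreted serine protease that binds hyaluronan. Acute controls measured 18.0, 35.1, 29.9, 27.3 and 21.4 CPM and acute DKO libraries from 2.98 through 9.87 to 16.6 CPM. No overlap was seen, and DKO 4 and DKO 3 were again lowest. The difference was -1.41 ± 0.33 (SE, adjusted p by limma = 0.012). Prolonged controls agreed closely, at 27.9, 28.0 and 29.5 CPM, while DKO libraries measured 12.1, 6.99, 14.5, 13.002 and 21.6 CPM. All DKO libraries lay below, at -1.08 ± 0.24 (SE, adjusted p by limma = 0.0109).

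Nupr1 encodes a small nuclear protein induced by cell stress. It measured 13.7, 23.8, 18.6, 21.0 and 15.7 CPM in acute controls and from 5.59 through 9.28 to 14.3 CPM in acute DKO libraries. Only DKO 2 overlapped the controls, lying above control 1, and the difference was -0.99 ± 0.19 (SE, adjusted p by limma = 0.00404). Prolonged controls spread from 9.66 through 12.9 to 18.7 CPM, and DKO libraries measured 5.49, 4.51, 8.04, 8.25 and 12.6 CPM. DKO 5 overlapped the controls, and the difference of -0.77 ± 0.27 (SE) did not pass (adjusted p by limma = 0.0742). It passed without control 1 (-0.98, 0.0483) or without DKO 5 (-0.95, 0.0245). Genes of the integrated stress response, to which Nupr1 belongs as a responsive gene, were called lower in 7 of 18 at the acute time and 1 of 18 at the prolonged time, with none higher, beside 12.1% and 8.94% of all genes. The acute count was 3 with TMM factors and 4 without DKO 3 and 4, and the prolonged count was 2 without DKO 2 and 5. The same fits called 1124 of 13601, 1311 of 13477 and 733 of 13143 genes lower. Chac1, a glutathione-degrading enzyme gene, changed by -0.87 at the acute time and was at 0.43 at the prolonged time (adjusted p by limma = 0.533). Mthfd2, a mitochondrial folate enzyme gene, changed at both times (-0.83 and -0.62).

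**Figure D2:**
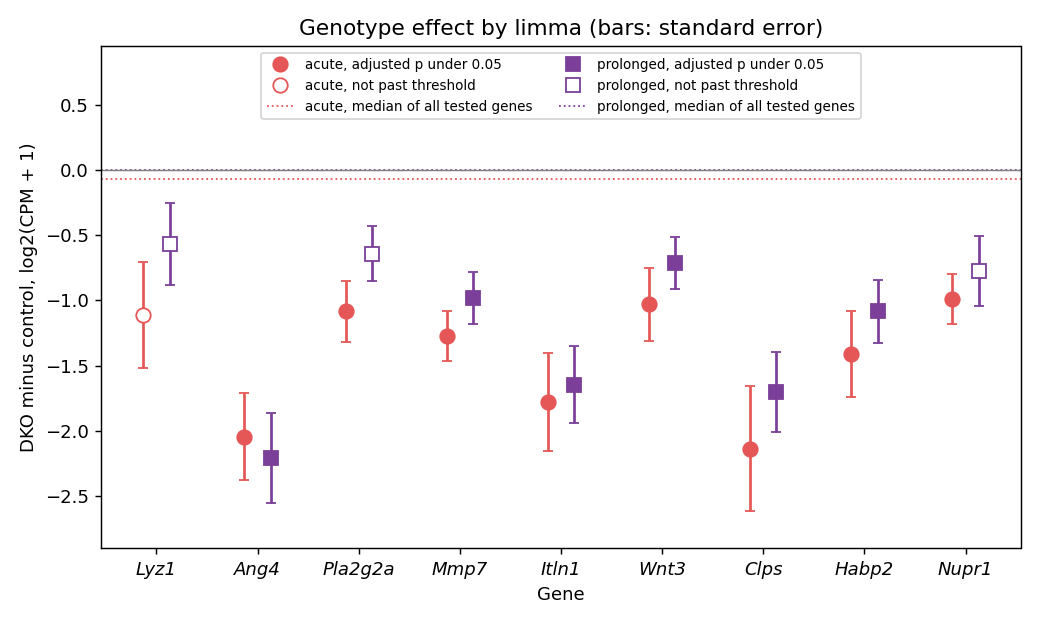
Difference between DKO and control means of log2(CPM + 1) for each gene at the acute and prolonged times, negative where DKO is lower; points are limma estimates, bars their standard errors, filled symbols passed an adjusted p of 0.05, and dotted lines give the median of all genes tested. All 18 estimates lie below 0, from -2.21 for prolonged Ang4 to -0.57 for prolonged Lyz1.

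The genotype difference was compared between the times in 1 limma model over the 4 groups. None of the 9 genes passed (0 of 9), and neither did any of 13088 genes tested at both times (0.00%), of which 608 had an unadjusted p under 0.05. edgeR called 0 genes and DESeq2 8, none of them among the 9. The prolonged minus acute difference ranged from -0.16 ± 0.56 (SE) for Ang4 to 0.54 ± 0.61 for Lyz1, so the standard errors were as large as most of the differences. For Mmp7, where the error was smallest, it was 0.29 ± 0.32 (SE, adjusted p by limma = 0.878). A change between times of the size of these errors was not detectable with these libraries.

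The libraries of a group differed from each other in the same way for most of the 9 genes. Acute control 2 was the highest control for 9 of 9 genes and control 1 the lowest for 8. Among acute DKO libraries, DKO 4 was lowest for 6 genes and DKO 3 for the other 3, and DKO 2 was highest for 6. In the prolonged DKO group, DKO 2 was lowest and DKO 1 next lowest for 9 of 9 genes, and DKO 5 was highest for 8. Without acute DKO 3 and DKO 4, 9 of 9 genes were called lower, beside 1311 of all 13477 genes tested in that fit. Without prolonged DKO 2 and DKO 5, 6 of 9 were, beside 733 of all 13143.

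Acute DKO 3 and DKO 4 carry neighbouring animal numbers, and no control has a number within 10 of theirs, so genotype and animal number cannot be told apart for these libraries. With number group as a term (5 groups, of which 3 hold both genotypes), 7 of 9 genes were called lower. Under the 10 alternative settings other than leaving out single libraries, this term among them, 828 to 1660 of all genes were called lower. Wnt3 lost its call (-0.75, adjusted p by limma = 0.0937), Lyz1 was at -0.48 (0.308), and Clps was at -1.34 (0.018).

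**Figure D3:**
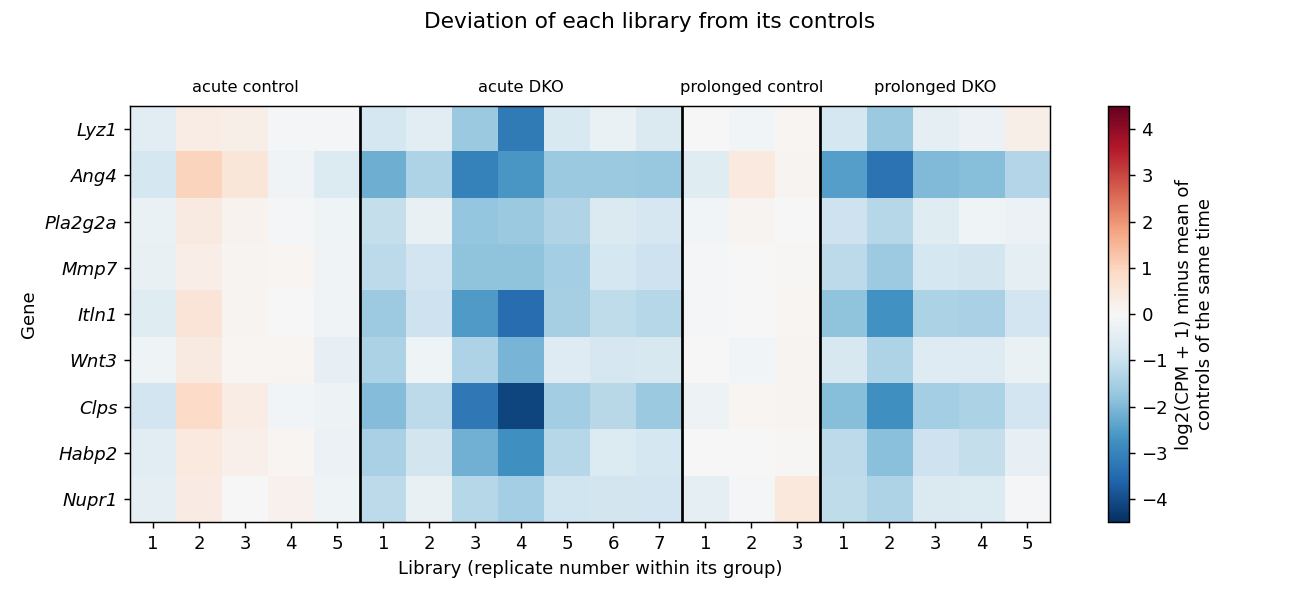
log2(CPM + 1) of each gene (rows) in each library (columns), minus the mean of the controls of the same time; blue is lower and red higher. Acute DKO 3 and 4 and prolonged DKO 2 form the darkest columns, and acute control 2 is red in all 9 rows.

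Each gene was also set against Lyz1 in the same library, as log2((CPM + 1)/(Lyz1 CPM + 1)), a comparison added after the values had been seen. Over the 5 prolonged DKO libraries Lyz1 differed by 3.82-fold from lowest to highest, Clps by 3.95-fold and Itln1 by 3.63-fold, and Ang4 ran from 55.3 to 221 CPM. The Ang4 ratio in these libraries was -4.73, -4.68, -4.66, -4.72 and -4.64, against -3.61, -2.51 and -3.01 in controls. These DKO ratios had an SD of 0.040 (n = 5), and their mean differed from that of the controls by -1.64. The Clps ratio was -6.68, -6.64, -6.70, -6.72 and -6.67 in DKO libraries and -5.78, -5.34 and -5.52 in controls. For Itln1 it was -2.21, -2.22, -2.23, -2.37 and -2.30 in DKO libraries and -1.31, -1.06 and -1.19 in controls. Habp2 also lay below all controls in 5 of 5 DKO libraries, with a mean difference of -0.52, whereas Pla2g2a, Mmp7, Wnt3 and Nupr1 overlapped the controls.

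At the acute time all 7 DKO libraries had a lower Clps ratio than any control (a difference of -1.02), and the same held for Itln1 in 7 of 7 (-0.67) and for Ang4 in 6 of 7 (-0.93). For Pla2g2a, Wnt3 and Nupr1 the DKO minus control difference of the ratio was 0.03, 0.08 and 0.12, values that turned negative without DKO 4. That library had the lowest Lyz1 of all, and among DKO libraries its ratio was the highest for 7 of 8 genes, Clps being the exception.

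In limma across all genes relative to Lyz1, 0 of 8 ratios passed at either time, where 0.0368% of 13600 acute and 0.0601% of 13315 prolonged genes were called lower and 43.3% and 0.330% higher. That fit gave all genes 1 common standard error, 0.47 for the acute and 0.45 for the prolonged libraries. The SD of the prolonged DKO ratios ran from 0.028 for Clps to 0.331 for Pla2g2a. Without acute DKO 4 the differences were -1.18 for the Ang4 ratio, -1.04 for the Clps ratio and -0.73 for the Itln1 ratio. Calls without DKO 4 are left out, since the share of all genes called lower in that fit is not given. The 0.0368% above belongs to the fit with all acute libraries. Exact two-sided permutation tests of each ratio over the libraries gave unadjusted p = 0.00126 for acute Clps, 0.00253 for acute Itln1 and 0.0316 for acute Ang4. For prolonged Ang4, Clps and Itln1 they gave 0.0179, the smallest p that 56 splits allow. After adjustment over all 16 ratios, 2 acute ones (Clps and Itln1, exact permutation adjusted p = 0.0202) and 0 prolonged ones passed. Prolonged Ang4, Clps and Itln1, already at their smallest possible p, had an exact permutation adjusted p of 0.0571. The small prolonged groups limited this outcome, so the 2 times cannot be compared by it.

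**Figure D4:**
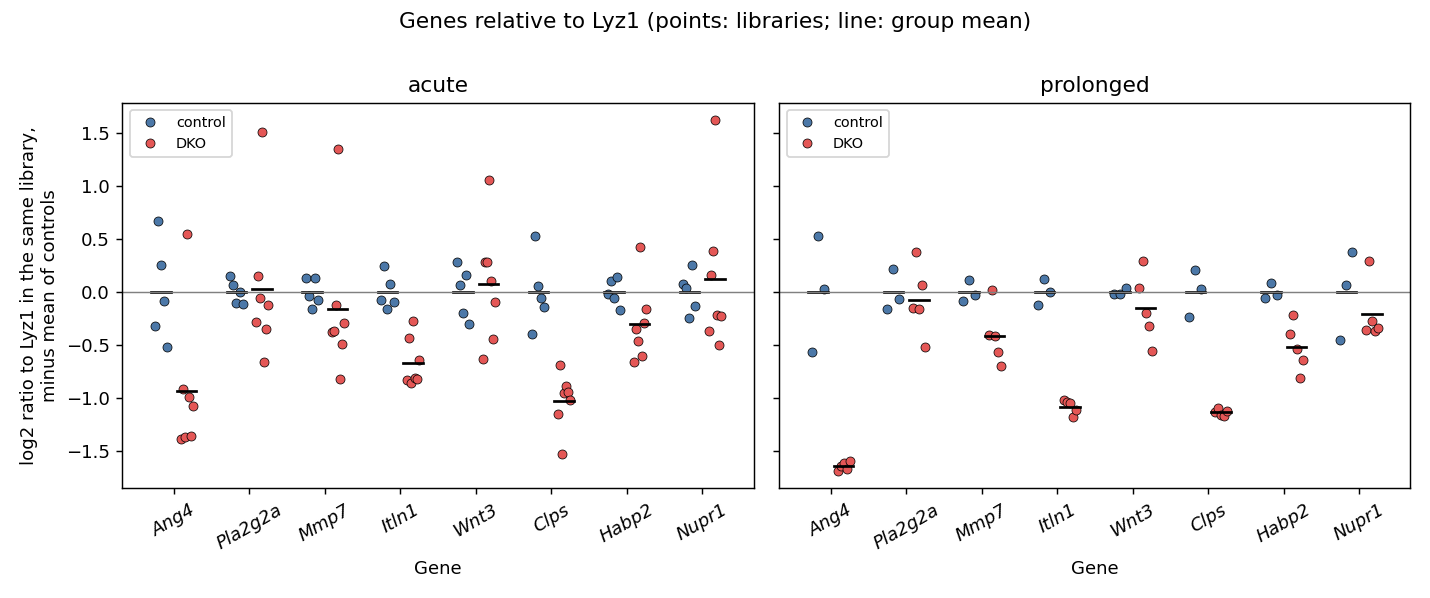
log2 ratio of each gene to Lyz1 in the same library, minus the mean of the controls, at the acute (left) and prolonged (right) time; points are libraries and lines group means. In the prolonged panel the 5 DKO points of Ang4, Itln1 and Clps lie close together at means of -1.64, -1.08 and -1.14, and in the acute panel the topmost DKO point of every gene but Clps is DKO 4.

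Genes with the most similar profile were taken as those with the smallest root mean square difference of log2(CPM + 1), centred on each time's mean, over 20 libraries and 13088 genes. These distances share library, depth and genotype, so they describe likeness only. Itln1 lay closest to the defensin genes Defa17 (0.13) and Defa26 (0.17), followed by Mptx2 (0.20). Clps lay closest to Defa30 (0.17), Defa17 (0.17) and Itln1 (0.22). Habp2 was closest to Defa3 (0.18), Defa24 (0.18) and Defa26 (0.24). Mmp7 and Pla2g2a had the same nearest gene, Pla2g2f (0.15 each), and lay 0.18 from each other, followed by Fam46c for Mmp7 (0.21) and Nupr1 for Pla2g2a (0.23). Ang4 had no neighbour as close, with Mptx1 at 0.34, Tmed6 at 0.37 and Itln1 at 0.41. Such distances also depend on a gene's own spread. The root mean square of the centred values was 1.19 for Ang4 and 1.22 for Clps, against 0.62 for Wnt3 and 0.58 for Nupr1. Wnt3 lay closest to Fam46c (0.20) and the crypt base gene Olfm4 (0.21), followed by Defa5 (0.22), and Nupr1 to Fam46c (0.22), Pla2g2a (0.23) and Wnt3 (0.24).

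Relatives of these genes and other antimicrobial products were read from lists; 12.1% of all genes tested were called lower and 2.90% higher at the acute time, and 8.94% and 5.74% at the prolonged time. Of 12 tested relatives of the members' families 3 were called lower at the acute time, and 4 of 9 at the prolonged time, with none higher. Ang, the angiogenin gene beside Ang4 in its family, changed by -0.98 and -0.92, and Pla2g2f, a phospholipase of the Pla2g2a family, by -1.10 and -0.85. Among other Paneth or crypt antimicrobial genes, 5 of 12 and 5 of 10 were called lower and none higher. Mptx2, a pentraxin gene of Paneth cells, changed by -1.97 and -1.80, and Mptx1 by -1.77 and -1.58. Reg3b and Reg3g, antimicrobial lectin genes also made by enterocytes, were not called at either time (0.30 and 0.47 acute, -0.35 and -0.25 prolonged).

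Alpha-defensin genes, the main granule products beside these 9, were called lower in 5 of 14 tested at both times, beside 12.1% and 8.94% of all genes, with medians of -0.79 and -0.41. Their reads may be divided among near-identical copies. The called ones were the same at both times: Defa30 (-2.03 and -1.81), Defa17 (-1.83 and -1.52), Defa26, Defa3 and Defa24. The others were not called, and some lay above 0 at the prolonged time. Defa29 was at -0.14 and 0.32, Defa21 at -0.82 and 0.14, and Defa35 at -0.02 and 0.09. Without acute DKO 3 and DKO 4, 7 of 14 were called lower, beside 1311 of all 13477 genes.

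Regulators of Paneth cells were read from a further list. Of 16 tested regulators 4 were called lower at the acute time and 3 of 15 at the prolonged time, beside 12.1% and 8.94% of all genes, with none higher and medians of -0.22 and -0.01. Ephb3, the receptor that holds Paneth cells at the crypt base, changed by -1.01 and -0.61, and Bhlha15, a transcription factor of secretory cells, by -0.74 and -0.90. Sox9 and Atoh1, transcription factors needed for the Paneth lineage, were not called (-0.40 and -0.28 acute, -0.01 and 0.06 prolonged), and neither were Gfi1, Spdef, Xbp1 and Fzd5.

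Niche ligands and Wnt secretion genes gave no common direction beside Wnt3. Of 17 tested 1 was called higher and 2 lower at the acute time, and 3 higher and 1 lower of 18 at the prolonged time. The acute share called lower was close to the 12.1% of all genes, and the prolonged one below 8.94%. Over all genes, 2.90% and 5.74% were called higher at the 2 times. Tgfa, a ligand of the epidermal growth factor receptor, changed by 0.28 and 0.24. Porcn, which modifies Wnt proteins for secretion, changed by -0.54 at the acute time and was at -0.43 at the prolonged time (adjusted p by limma = 0.0647). Znrf3, a ligase that removes Wnt receptors, changed by -0.43 at the acute time and was at -0.07 at the prolonged time. Wls, the Wnt export receptor, changed by 0.49 at the prolonged time and Wnt4 by -0.97. At the acute time Wls was at 0.18 (adjusted p by limma = 0.457) and Wnt4 at -0.86, and neither was called. Egf was not called at either time (-0.24 and -0.12).

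Markers of neighbouring cell types moved as follows, and their part in the results above was not tested. The shares of all genes called lower were 12.1% and 8.94% and those called higher 2.90% and 5.74%. Crypt stem cell markers were called lower in 5 of 14 and 2 of 14, with none higher, so that the prolonged count was near the share of all genes. Olfm4 changed by -1.04 and -0.79 and Tnfrsf19 by -0.85 and -0.64. The stem marker sum lay between 2225 and 2907 CPM in acute controls and 1014 and 2080 CPM in acute DKO libraries, with DKO 4 and DKO 3 lowest. At the prolonged time it lay between 2480.4 and 2866 CPM in controls and 1851 and 2111 CPM in DKO libraries. Goblet cell markers, which bear on Itln1, were called in both directions, 1 higher and 2 lower of 15 at the acute time and 1 higher and 3 lower of 14 at the prolonged time, where 1 was lower with TMM factors or without DKO 2 and 5. The acute share called lower was near that of all genes. The goblet sum overlapped between groups, at 6248 to 7412 CPM in acute controls and 6453 to 8032 CPM in acute DKO libraries. The lectin gene Zg16 changed by 0.72 and 0.58, the kallikrein gene Klk1 by -0.59 and -0.46, and Galnt12, which starts mucin-type sugar chains, by -0.38 and -0.39. Clca1 changed by -0.43 at the prolonged time and was at -0.36 at the acute time (adjusted p by limma = 0.183). Enterocyte markers were called higher in 6 and lower in 1 of 18 at the acute time, and in 2 and 1 at the prolonged time, the latter near the shares of all genes. Mgam, a sugar-digesting enzyme gene, changed by 0.68 and 0.53 and Treh, the trehalase gene, by -0.88 and -0.77. Slc2a2, a glucose transporter gene, changed by 0.65 at the acute time, and Dgat1, an enzyme gene of fat synthesis, by 0.27 at the prolonged time.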

How the data were processed

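Gene expression was measured by poly(A) RNA-seq in 20 libraries of mouse jejunal epithelium. Per the submitters' processing notes, the tools were featureCounts 1.6.2, STAR, DESeq2, FastQC 0.11.5, bedtools 2.27.1 and SAMtools 1.9 and the build mm9, with no role or order. The authors deposited 1 table per time with CPM per library and gene symbol; the deposited CPM have an equal sum in every library, so no composition scaling was applied. The labels do not state whether strand was used in counting. Of the acute gene names, 24 look like dates and 2 were repeated.

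Dividing the CPM by the smallest non-zero value of each library gave whole numbers (tolerance 0.01) for 100% of values, which were taken as reads. The evidence is weaker in prolonged control 3, whose smallest such value is close to a round number. Reads in genes ranged from 15435118 to 26549494 in acute controls, 19134272 to 26586045 in acute DKO, 9914738 to 23181576 in prolonged control and 12560843 to 20612206 in prolonged DKO libraries. Within groups, 44 pairs of libraries differed by 6.14 to 139 times the sampling variance, more than repeated sequencing of the same library would give. That they came from separate animals rests on the labels, and the prolonged labels carry no animal number. All were counted as separate samples.

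Groups were compared by limma-trend on log2(CPM + 1), using limma 3.58.1 in R 4.3.3, with genes kept at 0.5 CPM or more in 5 acute or 3 prolonged libraries, Benjamini-Hochberg adjustment over all genes tested and a threshold of 0.05. The test between times used 1 model over 4 groups. Alternatives were pseudocounts of 0.5 and 5, no filter, TMM-scaled CPM, edgeR 4.0.16 and DESeq2 1.42.0 on the recovered reads, a block, a term for animal-number groups and leaving out libraries; limma-voom and the ratios to Lyz1 were added after the values had been seen. The ratios were tested with exact permutation tests first, and the fit across all genes was run after those. Tests were checked on simulated data.

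The 9 genes and the 14 gene lists were chosen with earlier results of these data known. All 9 genes, Kdm6a and Kdm6b are named. From each list at each time, the rule names up to 2 called genes that rose most and 2 that fell most, and for each called gene of the 9 its 3 nearest profiles; other genes named (such as Lyz2, Sox9, Reg3b, Pnliprp2 and Egf) were chosen for their role or after their values were seen. Promoter sequences are RefSeq's for GRCm38.p6, and no coordinates of the mm9 build were used.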

Additional observations from a re-analysis of the deposited data

How the results depend on the processing

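Over 113 results and 2228 alternative values, 1996 kept their direction and their side of the threshold (for counts, stayed within 1.5 times), 125 lost a call, 45 gained one, 30 moved and 32 changed sign; where a value changed, the cause was not tested unless fewer libraries were fitted. Of the 9 genes, 8 were called lower at the acute time under every setting but the animal-number term (7) and leaving out DKO 3 and 4 (9), with 7 to 9 when single libraries were left out. After 5 months 6 were called lower except in DESeq2 (7) and with a replicate block (8), with 5 to 8 when single libraries were left out. Over all genes, those settings called 828 to 1660 lower at the acute time and 361 to 1213 at the prolonged time. Leaving out single libraries gave 997 to 1817 and 661 to 1132. No sign of the 9 genes changed at either time.

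Replicate numbers did not pair the libraries: correlations of same-numbered libraries ran from -0.20 to 0.20 over 5 acute pairs and from -0.24 to -0.16 over 3 prolonged pairs, and 0 correlated best with their own number. With the replicate block, 947 genes were called at the acute time (2035 without it) and 528 at the prolonged time (1955 without it), and the prolonged Lyz1 difference was -0.94 (adjusted p by limma = 0.0601). Leaving out single libraries gave 1222 to 2186 acute and 1028 to 1705 prolonged calls, lowest without acute control 3 and prolonged control 3, and leaving out prolonged DKO 2 and 5 gave 1097. With a pseudocount of 5 the Wnt3 differences were -0.58 and -0.44. Between times, 4 genes were called with a pseudocount of 5, 5 without the filter, 8 in DESeq2, 2 with the animal-number term and 0 to 2 when single libraries were left out.

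The signs that changed belong to differences near 0 and to some larger differences between times. Itgam was at -0.26 with the animal-number term and -0.072 without acute DKO 3 and 4, prolonged Chac1 at -0.012 without DKO 2 and 5, and prolonged Znrf3 between -0.13 and 0.040 when single libraries were left out (0.040 without control 1). The difference between times became -0.0070 for Nupr1 with the block, and -0.087, -0.41, -0.36 and -0.13 for Lyz1, Itln1, Clps and Habp2 with the animal-number term. In the main fit it was 0.21 for Nupr1 and 0.54, 0.13, 0.43 and 0.33 for those 4, each smaller than its standard error. Without acute DKO 3 and 4 it was -0.35, -0.18 and -0.087 for Itln1, Clps and Habp2. When single libraries were left out, it ran from -0.43 to 0.11 for Ang4 (above 0 without acute control 1, prolonged control 2 or prolonged DKO 2) and from -0.14 to 0.40 for Itln1 (below 0 without acute control 2, acute DKO 4 or prolonged DKO 5).

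Ratios to Lyz1 changed sign at the acute time for Wnt3 with a pseudocount of 0.5 (-0.043) and Habp2 with 5 (0.013). Without acute DKO 3 and 4 they were -0.25, -0.16 and -0.23 for Pla2g2a, Wnt3 and Nupr1 and when single libraries were left out they ran from -0.22 to 0.14, from -0.083 to 0.20 and from -0.13 to 0.23, lowest without DKO 4. At the prolonged time, a pseudocount of 5 gave 0.042, 0.12 and 0.0075 for Pla2g2a, Wnt3 and Nupr1, and leaving out single libraries gave -0.19 to 0.035 for Pla2g2a. Wnt3, the gene with the fewest reads of the 9, had as few as 19 in a library, and its values carry the most counting error.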
